A study of Caenorhabditis elegans with 2 samples.

Results

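Synaptic vesicle and active zone genes of Caenorhabditis elegans were examined for regions bound by tagged SYD-9 in late embryos. The set is 35 named genes of 19973 nuclear protein-coding genes, chosen by name for their work at the presynaptic terminal and kept whether or not a region lay near them. The embryos were of strain OP488, which carries the unc-119(tm4063) mutation on chromosome III and the transgene wgIs488. The transgene encodes SYD-9 with GFP and FLAG at its C-terminal end, and the hermaphrodite animals were taken 4 h after eggs had been bleached to synchronise them. Sonicated chromatin was precipitated with an antibody to GFP in 2 biological replicates of 1 group. No untagged or mock sample was analysed here, so no value has a control beside it and no test between groups was possible. Whole animals were used, so the cells in which a region was bound cannot be told from the lists, and a weak region in every cell cannot be told apart from a strong one in a few neurons.

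Neurons pass signals at synapses by loading transmitter into small vesicles, carrying the vesicles to the terminal along microtubules, and fusing them with the membrane at the active zone. Endocytosis then takes vesicle membrane and proteins back for another round. SYD-9 is a zinc finger protein that is known in this worm for its role in the distribution of synaptic vesicle proteins. ChIP-seq marks where a tagged protein, or a complex that holds it, sat on DNA, and a region near a gene does not show that the gene is regulated.

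The authors deposited 4 lists of regions in build ce11. The replicate lists held 10468 and 20425 regions and the list from pooled alignments held 13472. A stricter list of 941 regions was kept by irreproducible discovery rate (IDR), a procedure that weighs how consistently regions rank between replicates. Of these, 923 were on nuclear chromosomes. A place in this list does not mean like ranks, since 639 of the 941 were among the 941 highest regions of both replicates. The IDR regions described below had the same score and the same rank in the pooled list, so their pooled score is no second measurement. Each region carries the authors' signal score, whose scale no source used here states. The score ran from 95.2 to 932.3 with a median of 131 in the IDR list, and from 34.6 with a median of 44.8 in the pooled list. The pooled and replicate lists reach down to weak candidate regions, so a summit there alone is a candidate and not a binding call. No read counts are in the lists, so depth is unknown and no counting error can be given. Across the 935 IDR regions met by both replicates the pooled score was a median 1.00 times the sum of the replicate scores, and replicate 2 scored higher in 77.5% of them. A gene was counted when a summit, the base of highest signal in a region, lay within 1000 bp of any of its annotated 5' ends or inside an intron.

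In the IDR list 4 of the synaptic genes held a summit, and the sequences under those summits are shown because the strict calls rest on them. They are syd-2, unc-104, dnj-14 and dyn-1. Each window is 300 bases of the ce11 (WBcel235) genome around the summit, written 5' to 3' along the strand of the gene. The syd-2 window is chrX:10555556-10555855 on the minus strand, and the dnj-14 window is chrX:4711889-4712188 on the minus strand. The dyn-1 window is chrX:15568297-15568596 on the plus strand, and the unc-104 window is chrII:7001476-7001775 on the plus strand. In syd-2, dnj-14 and dyn-1, capitals mark the motifs described after the sequences. In unc-104, capitals mark an annotated tRNA pseudogene, C52E12.t1, a DNA stretch that resembles a tRNA gene.
syd-2: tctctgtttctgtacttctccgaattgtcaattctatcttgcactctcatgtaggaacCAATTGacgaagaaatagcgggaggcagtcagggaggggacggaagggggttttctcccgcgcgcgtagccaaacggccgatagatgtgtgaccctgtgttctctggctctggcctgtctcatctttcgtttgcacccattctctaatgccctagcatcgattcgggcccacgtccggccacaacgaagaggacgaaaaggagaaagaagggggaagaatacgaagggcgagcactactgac
dnj-14: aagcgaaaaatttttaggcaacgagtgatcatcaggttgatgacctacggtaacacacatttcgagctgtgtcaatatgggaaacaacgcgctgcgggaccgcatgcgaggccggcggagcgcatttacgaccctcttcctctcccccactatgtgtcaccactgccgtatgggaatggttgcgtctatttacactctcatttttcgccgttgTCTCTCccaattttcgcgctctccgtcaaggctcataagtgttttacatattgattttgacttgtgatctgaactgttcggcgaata
dyn-1: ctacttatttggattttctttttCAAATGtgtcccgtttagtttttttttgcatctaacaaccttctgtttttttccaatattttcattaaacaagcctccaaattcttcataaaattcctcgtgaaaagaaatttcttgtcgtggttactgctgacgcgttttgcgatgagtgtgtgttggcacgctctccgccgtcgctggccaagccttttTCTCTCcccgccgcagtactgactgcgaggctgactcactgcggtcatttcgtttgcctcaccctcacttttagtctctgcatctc
unc-104: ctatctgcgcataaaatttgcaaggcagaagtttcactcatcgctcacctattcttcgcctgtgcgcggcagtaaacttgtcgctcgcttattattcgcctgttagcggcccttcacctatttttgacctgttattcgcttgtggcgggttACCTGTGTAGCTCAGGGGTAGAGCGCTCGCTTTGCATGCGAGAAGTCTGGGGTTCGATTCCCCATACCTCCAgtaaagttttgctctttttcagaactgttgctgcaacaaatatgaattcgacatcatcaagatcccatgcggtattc

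The letters of 6 motifs were searched on both strands of each window. GAGAGA, read as TCTCTC on the other strand, began at base 214 of the dnj-14 window and base 215 of the dyn-1 window, counted from the 5' end, and was not in the other windows. Of all windows of this length around nuclear summits, 53.8% in the IDR list and 29.8% in the pooled list held it. CANNTG, where N is any base, began at base 59 in syd-2 and base 24 in dyn-1, and 66.7% of IDR windows and 69.8% of pooled windows held it. GTTCGA, the core of the B box of tRNA genes, began at base 203 in unc-104, inside the pseudogene, and 20.6% of IDR windows and 11.8% of pooled windows held it. TATAAA was in none of these 4 windows, against 17.4% of IDR windows and 21.1% of pooled windows. The same was so of CTGCGTC, which 17.8% of IDR windows and 7.63% of pooled windows held. It was also so of CCGCCC, with 19.8% of IDR windows and 11.4% of pooled windows. None of the searched motifs overlapped another in these windows. A match or its lack is a property of the letters and does not show what bound there. The windows were 53.0% GC in syd-2, 48.3% in dnj-14, 47.7% in unc-104 and 43.7% in dyn-1, and the median of IDR windows was 46.7%.

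Among the active zone genes, syd-2 had the highest score of all 35 genes. It encodes liprin-alpha (WBGene00006364), a scaffold that helps to assemble presynaptic sites. The summit lay 467 bp upstream of the 5' end on the X chromosome, in an exon of the non-coding RNA gene F59F5.9. Its score was 157 in the IDR list, at the 70.03rd percentile of IDR regions. The pooled list holds the same region with the same score. Replicate 1 scored 45.98 and replicate 2 scored 112 at this place. The replicates therefore differed 2.43-fold, and only a small share of IDR regions leaned further towards replicate 2, since this ratio was at the 97.6th percentile. The region ranked 835th in replicate 1 and 161st in replicate 2.

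For dnj-14, the call is shared with a neighbour. The gene (WBGene00001032) encodes the worm relative of cysteine string protein, a chaperone of the synaptic vesicle. The IDR summit lay 291 bp upstream of its 5' end on the X chromosome and scored 146. Replicate 1 scored 56.2 and replicate 2 scored 87.3, both at nearly the same base. The 5' end of glit-1, on the opposite strand, was closer at 240 bp, and exons of the non-coding RNA genes DL2.1 and DL2.2 covered the summit. Which of these genes the region belongs to cannot be told apart from position.

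The gene dyn-1 (WBGene00001130) encodes dynamin, the GTPase that pinches endocytic vesicles off the membrane. Its IDR summit lay 443 bp upstream on the X chromosome in intergenic sequence, with a score of 115, higher than 32.6% of IDR regions. Replicate 1 scored 64.6 at the same base. The nearest summit of replicate 2 scored 47.7 and lay 141 bp away. That replicate 2 region also met a second, weaker pooled summit 241 bp upstream, which scored 47.8 and which replicate 1 did not hold. The ratio of replicate 2 to replicate 1 was 0.739, at the 6.2th percentile of IDR regions, so dyn-1 leaned to replicate 1 where syd-2 leaned to replicate 2. A further IDR region, with a score of 101, lay 2033 bp upstream of dyn-1 and outside the distance used.

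**Figure D1:**
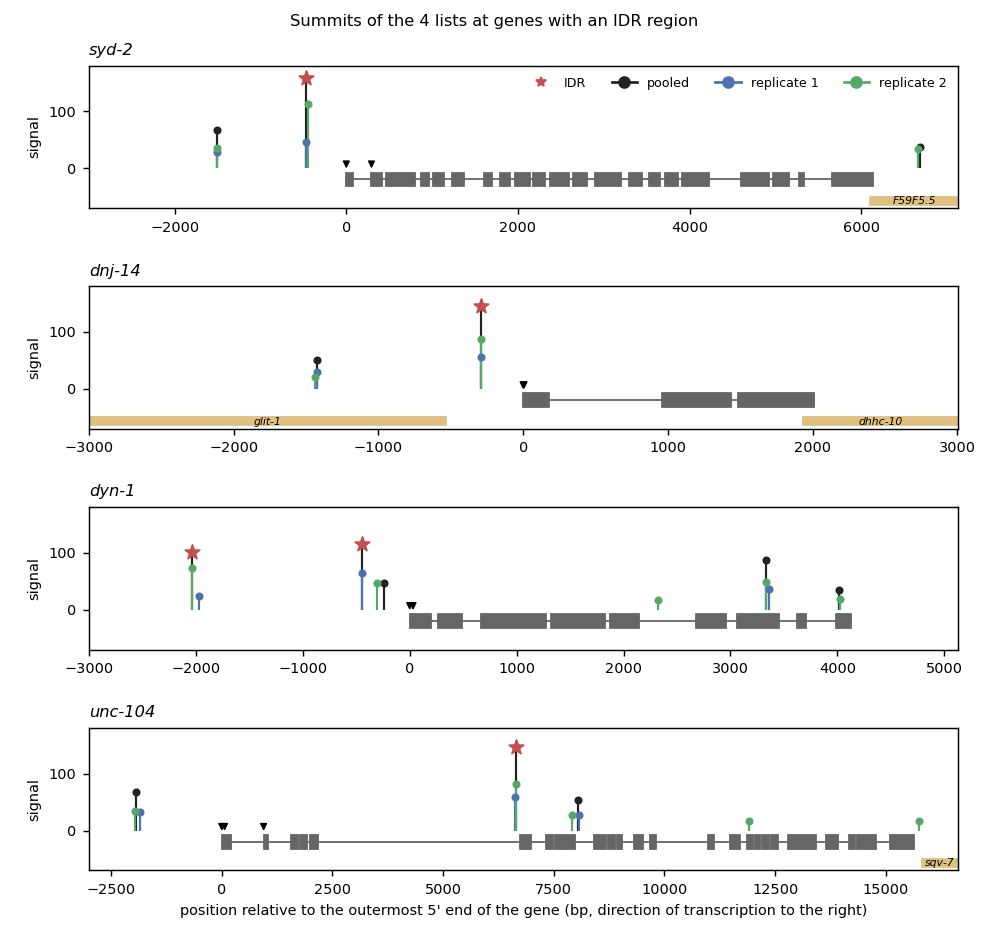
Summits of the 4 lists at syd-2, dnj-14, dyn-1 and unc-104, by position relative to the outermost 5' end (bp) and by the authors' signal score. Boxes are exons, arrows annotated 5' ends, coloured bars neighbouring protein-coding genes, and lines end at the score in the pooled list (black) or a replicate (blue, green), with a star for an IDR region. In syd-2, dnj-14 and dyn-1 the IDR summit at 157, 146 and 115 stands upstream of the gene, and in unc-104 the summit at 147 stands in a long intron.

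The remaining IDR summit was inside a gene and not near its start. The kinesin-3 motor UNC-104 (WBGene00006831) carries synaptic vesicle precursors down the axon. Its IDR summit on chromosome II scored 147, with 59.4 in replicate 1 and 81.1 in replicate 2. It lay 5694 bp from the closest 5' end, in an intron of 4567 bp that is intron 5 of 22 in 1 annotated transcript. The summit base, 7001626, is 1 bp before the tRNA pseudogene C52E12.t1, which spans 7001627 to 7001698. The pseudogene is 72 bp long and differs at 5 bases from 8 annotated tRNA-Ala genes, an identity of 93.1%. Only 55.9% of the 31-base words in the unc-104 window occur once in the genome, against all of them in the windows of syd-2, dnj-14 and dyn-1. Reads from other copies can be placed at such words, and their part in the score was not tested. A second pooled summit in a later intron of unc-104 scored 53.4 and lay inside the tRNA-Ala gene C52E12.t3. Across the genome, 3 of 209 tRNA pseudogenes (1.44%) had an IDR summit within 200 bp, whereas 150 of 612 tRNA genes (24.5%) did.

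**Figure D2:**
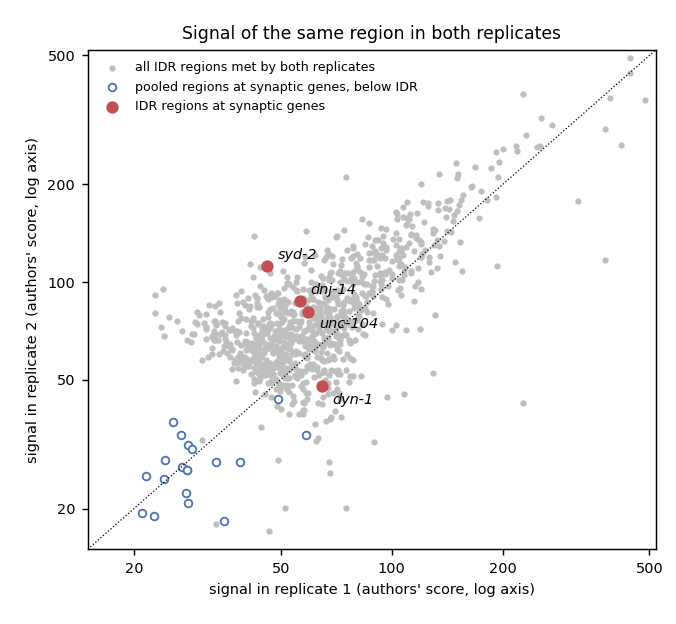
Signal score of the same region in replicate 1 and replicate 2, both on log axes, for all IDR regions met by both replicates (grey), for IDR regions at synaptic genes (red) and for weaker pooled regions at synaptic genes (open). The dotted line marks equal scores. syd-2 at 45.98 and 112 lies far above the line, and dyn-1 at 64.6 and 47.7 lies below it.

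Counted by genes, 3 of the 35 (8.57%) had an IDR summit no more than 1000 bp from a 5' end, and 3.42% of all nuclear protein-coding genes did. The count falls to 2 of 35 where no other protein-coding gene may be closer, beside 2.59% of all genes. In the pooled list 17 of the 35 (48.6%) had a summit near a 5' end, beside 30% of all genes (5992 of 19973), and 16 kept it with no other gene closer, beside 25.4%. Replicate 1 gave 17 genes, beside 25.6% of all genes, and replicate 2 gave 22 (62.9%), beside 39.4%. Both replicates had a summit within that distance at 15 of the 35 (42.9%), beside 19.1% of all genes. This count did not ask that both summits be at the same place, and at ric-4 and snb-1 they were not. At this distance the shares were above the background in every list, and these margins were not tested. Within 250 bp that did not hold for the IDR and replicate 1 lists, where 0 of 35 had an IDR summit beside 1.41% of all genes and 8.57% one of replicate 1 beside 10.1%. The pooled share within 250 bp was 14.3% beside 12.6%, and replicate 2 gave 7 of 35 beside 16.4%. With the 941 highest regions of replicate 1 alone in place of the IDR list, 4 genes had a summit near a 5' end, with unc-11 added. With those of replicate 2 alone, 2 had one, and dyn-1 was missing. The shares of all genes were not counted for these substituted lists, so the counts have no background beside them.

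The synaptic genes are longer than most and have more starts, so more sequence was searched for each. Their median length was 6630 bp against 2027 bp for all genes, and 74.3% had several annotated 5' ends against 27.4%. Counted from the outermost 5' end alone, 11 of 35 genes (31.4%) had a pooled summit, and 27.3% of all genes did. Counted by 5' end, 30 of 86 ends (34.9%) had one, against 29.0% of the ends of all genes. The margin over the background in the pooled list was thus narrower once each start was counted alike. In the IDR list 6 of 86 ends (6.98%) had a summit, against 3.35%, and these 6 ends belong to 3 genes.

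All 3 genes with an IDR summit near a 5' end lie on the X chromosome, which holds 9 of the 35. There, 3 of 9 had an IDR summit, beside 4.39% of X-linked genes. The pooled list gave 6 of 9, beside 32.7%. Replicate 1 gave 5 of 9, beside 26.9%, and replicate 2 gave 8 of 9, beside 42.8%. Of the 26 autosomal genes 0 had an IDR summit near a 5' end, beside 3.27% of autosomal genes. The autosomal genes were still found in the weaker lists, with 11 of 26 in the pooled list beside 29.6%, 12 in replicate 1 beside 25.4% and 14 in replicate 2 beside 38.9%. The difference between X and autosomes rests on 3 genes and was not tested.

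**Figure D3:**
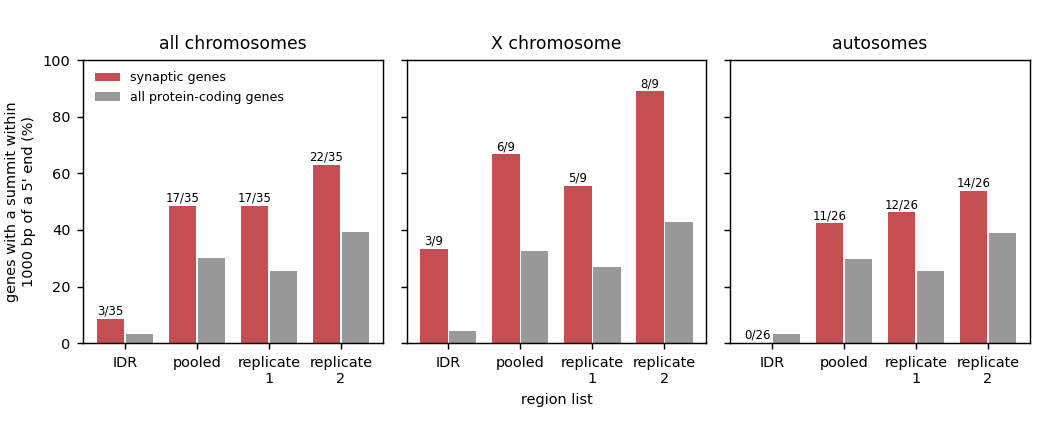
Share of genes (%) with a summit at most 1000 bp from a 5' end in each region list, for the synaptic genes (red, with counts above the bars) and all nuclear protein-coding genes (grey), over all chromosomes, the X chromosome and the autosomes. In the IDR list the red bar is 3 of 9 on the X chromosome and 0 of 26 on the autosomes.

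Of the genes for the release machinery, none of the 9 had an IDR summit, beside 3.42% of all genes with one near a 5' end. In the pooled list 3 of 9 (33.3%) had a summit near a 5' end, close to the 30% of all genes. They were snb-1 (synaptobrevin, the vesicle SNARE), unc-31 (CAPS, which primes dense core vesicles) and unc-18 (the Munc18 partner of syntaxin). For snb-1 the summit 417 bp upstream scored 51.05. Replicate 1 scored 32.8 there, and the nearest summit of replicate 2, which scored 25.9, lay 179 bp upstream of the 5' end and over 200 bp from the pooled one. For unc-31 the summit lay in an intron 263 bp past a 5' end and scored 50.4, with 28.0 in replicate 1 and 20.8 in replicate 2. For unc-18 the summit 394 bp upstream scored 42.7, below the pooled median, with 27.7 and 22.4. The SNAP-25 gene ric-4 had summits of both replicates near a 5' end, at 26.05 and 21.9, and none in the pooled list.

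Introns held the strongest release machinery region. The gene tom-1, which encodes tomosyn, an inhibitor of SNARE assembly, had a pooled intron summit of 90.7, with 58.7 in replicate 1 and 33.9 in replicate 2. It is just under the lowest IDR score of 95.2. The 5' end of ostd-1 is 257 bp away and closer than any 5' end of tom-1. The primer of vesicle fusion unc-13 had an intron summit of 63.2, with 28.0 and 31.5, and it was 1102 bp before one of the gene's 5' ends. It is thus just outside the 1000 bp limit, and the unc-11 summit described with the endocytosis genes, at 908 bp, is just inside it. The syntaxin gene unc-64 had 1 weak intron summit of 37.6. The complexin gene cpx-1 had no summit near a 5' end or in an intron in any list, and the synaptotagmin gene snt-1 had 1 intron summit in replicate 1 alone.

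Of the 7 active zone and assembly genes, 4 had a pooled summit near a 5' end, beside 30% of all genes. Of them syd-2 alone was in the IDR list, beside 3.42% of all genes near a 5' end. The calcium channel gene unc-2, the longest of the set at 52607 bp with 8 annotated 5' ends, held 9 pooled summits. The strongest, at 64.03, lay 648 bp before an internal 5' end and inside an intron, with 33.3 in replicate 1 and 27.9 in replicate 2. A summit of 51.6 lay 24 bp before another 5' end, and replicate 2 met it at 42.01 where replicate 1 did not. Another summit, of 63.3, lay in an intron 6382 bp from any 5' end, with 35.03 and 18.3. elks-1, which encodes the active zone scaffold ELKS, had a summit of 52.9 lying 505 bp upstream, with 24.3 and 28.2. syd-1, which encodes a RhoGAP-like organiser of presynaptic assembly, had its strongest summit, 64.4, in an intron 1457 bp past a 5' end, with 25.5 and 37.0. The kinase gene sad-1 had 2 intron summits of 55.3 and 45.1 and none near a 5' end. The stronger lay 10650 bp from a 5' end of sad-1, and that of srd-51 was closer at 5099 bp. The RIM gene unc-10 had summits near a 5' end in replicate 2 alone, the highest at 22.6, and the ubiquitin ligase gene rpm-1 had no summit near a 5' end or in an intron in any list.

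Of the 5 transport and Rab3 genes, rab-3 followed dnj-14 in pooled score near a 5' end. It encodes the vesicle GTPase, and its summit of 56.3 lay 494 bp before an internal 5' end and inside an intron, with 26.8 in replicate 1 and 33.7 in replicate 2. The synaptogyrin gene sng-1 had 2 weak pooled summits of 35.6 and 38.2, met by replicate 2 alone. The Rab3 exchange factor gene aex-3 had 1 summit near a 5' end, in replicate 2 at 21.4.

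Of the endocytosis genes, 5 of 6 had a pooled summit near a 5' end, beside 30% of all genes, and the difference was not tested. The highest outside the IDR list was at unc-11, the gene for the clathrin adaptor AP180. That summit lay 908 bp upstream and scored 92.9, against the lowest IDR score of 95.2. Replicate 1 scored 49.04 and replicate 2 scored 43.6, so the replicates were close to each other. itsn-1, which encodes the endocytic scaffold intersectin, had a summit of 68.2 in a coding exon 293 bp past a 5' end, with 38.7 and 27.9. A weaker one of 43.8 lay 896 bp before itsn-1 but 19 bp from uaf-2. The Eps15 gene ehs-1, whose product works with intersectin, scored 41.9 at 806 bp upstream, with 22.7 and 18.98. The synaptojanin gene unc-26 scored 37.0 and was met by replicate 1 alone. The endophilin gene unc-57 had a summit of 52.4 in replicate 2, 984 bp upstream, which neither replicate 1 nor the pooled list held.

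Of the transmitter synthesis and loading genes, 0 of 6 had a pooled summit near a 5' end, beside 30% of all genes, and 1 of 6 had one in each replicate list. With 6 genes, a difference from the background or from other roles was not tested. The choline acetyltransferase gene cha-1 and the vesicular acetylcholine transporter gene unc-17 share a locus, with unc-17 nested inside cha-1. They share 1 intron summit of 53.6, with 27.9 and 26.3, which counts for both. unc-25, which encodes the enzyme that makes GABA, had 1 pooled intron summit of 37.4, and the 5' end of Y39E4A.1 was closer at 2235 bp. The GABA transporter gene unc-47 had a summit of 17.95 near its 5' end in replicate 2, and unc-46, whose product helps to place that transporter, had one of 21.2 in replicate 1. The glutamate transporter gene eat-4 had no summit near a 5' end or in an intron in any list.

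Both neuropeptide genes had a pooled summit near a 5' end and inside an intron. Of all genes 30% had one near a 5' end, and of those with introns 13.2% had one in an intron. ric-7, which is needed for neuropeptide release, scored 50.8 at 64 bp before an internal 5' end, with 24.2 and 24.6. egl-3, which encodes the proprotein convertase that processes neuropeptides, scored 38.9, and replicate 2 alone met it at 32.6. With all roles together, 11 genes had no summit near a 5' end in any list. They were unc-13, unc-64, snt-1, cpx-1, sad-1, rpm-1, unc-104, unc-17, cha-1, unc-25 and eat-4, and of these cpx-1, rpm-1 and eat-4 had none in an intron either. The share of all genes without a summit in any list was not counted, so this number has no background beside it.

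**Figure D4:**
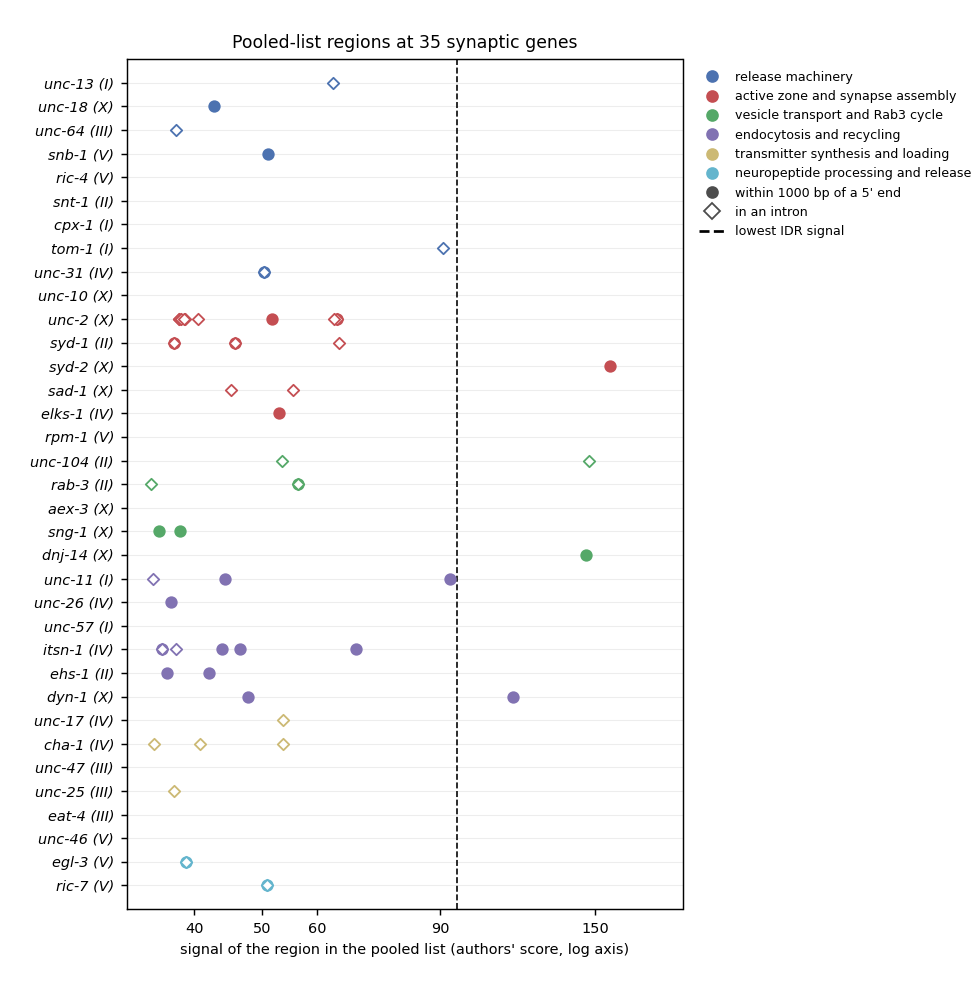
Signal score in the pooled list (log axis) of every region near a 5' end (filled circles) or in an intron (diamonds) of the 35 genes, coloured by role, with the chromosome in brackets. Rows without a symbol hold no pooled region in either place. The dashed line is the lowest IDR score, 95.2: 4 genes cross it, unc-11 at 92.9 and tom-1 at 90.7 stop just below, and no other region exceeds 68.2.

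The 48 distinct pooled summits at these genes had a median score of 44.7, beside 44.8 for the pooled list as a whole. Of the 48, 26 lay near a 5' end, at a median distance of 416 bp, and 19 of these were upstream of the closest 5' end. That end can be internal, and the upstream summits at unc-2, syd-1, rab-3 and ric-7 lay inside the gene. Replicate 1 met 28 of the 48 and replicate 2 met 42, and both met 22 within 200 bp. The replicate 2 list is longer, with 20425 regions beside 10468 in replicate 1. The same shares over all 13472 pooled regions were not counted, so these numbers have no background beside them. In introns, 16 of the 35 genes (45.7%) had a pooled summit, beside 13.2% of all genes with introns, and 1 had an IDR summit, beside 1.13%. Set against intron length, the pooled list held 14.2 summits per 100 kb of intron beside 11.9 for all genes. In the IDR list it was 0.474 beside 0.735, a rate that rests on 1 summit and cannot be told apart from the background. With the highest 941 regions of replicate 1 in place of the IDR list, 2 genes had an intron summit, unc-104 and tom-1. The share of all genes was not counted for that list. Leaving out summits at small RNA genes and tRNA pseudogenes, a choice made after seeing the data, left 0 genes with an IDR intron summit. The 10 highest pooled summits near a 5' end that the IDR list left out were searched in the same way. Their windows held GAGAGA in 8 and CANNTG in 7, beside 29.8% and 69.8% of all pooled windows. The shares of IDR windows were 53.8% and 66.7%. Each other searched motif was in 1 or 2 of the 10. The 10 were picked by score and place and the background was not, so no enrichment can be read from these shares. Among the 10 is the dyn-1 summit 241 bp upstream. Its window overlaps the dyn-1 IDR window and includes the same GAGAGA match.

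Related genes of the synapse outside the set were counted by the same rule in 9 further lists of 144 genes. Of these, 12 (8.33%) had an IDR summit near a 5' end, beside 3.42% of all genes, and 80 (55.6%) a pooled one, beside 30%. The length and the number of 5' ends of these 144 genes were not taken into account, and the margins were not tested. The largest share was among 11 genes of the G protein pathways that set the rate of release, where 5 had an IDR summit. The RGS gene eat-16 scored 199, with 75.7 in replicate 1 and 125 in replicate 2, and gsa-1, the gene for the stimulatory G alpha subunit, scored 192 at 118 bp upstream. egl-30, the gene for the Gq alpha subunit, held 3 IDR summits of 185.3, 147 and 124, and unc-73, the gene for the Trio exchange factor, scored 110. The adenylyl cyclase gene acy-1 scored 95.3, with no replicate 1 region within 200 bp. Among the release machinery genes the highest score near a 5' end was 51.05, at snb-1.

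Of the 12 other endocytosis genes, 3 had an IDR summit near a 5' end, beside 3.42% of all genes. All 3 encode subunits of the AP-2 adaptor, which gathers cargo into clathrin coats. They were dpy-23 at 153, apb-1 at 114 and apa-2 at 106, and with dyn-1 they make up the endocytosis genes with strict summits near a 5' end. A further AP-2 subunit gene, aps-2, had a pooled summit near a 5' end and no IDR summit. The AP-2 partner gene unc-41 had an intron summit of 324, and an annotated snoRNA gene, C27H6.5, lies 52 bp from it. Single IDR genes came from axonal transport (unc-76 at 109) and the vacuolar ATPase that acidifies vesicles (vha-13 at 110). The transmitter receptor list gave the GABA receptor gene unc-49 at 122 and the receptor clustering gene lev-9 at 232, whose summit lay inside a tRNA-Ala gene. The other lists had no IDR summit near a 5' end, and their highest pooled scores near a 5' end were 89.1 at unc-108, 86.3 at nsf-1, 82.0 at lin-7, where the 5' end of elof-1 was closer, and 76.6 at snf-11. Next in those lists near a 5' end came pkc-1 at 76.7, snt-2 at 57.1, sydn-1 at 79.99 and glt-1 at 38.1. In the lists with IDR genes, unc-14 at 89.4 and vha-1 at 92.4 came second near a 5' end. In introns, 7 of the 144 genes had an IDR summit, beside 1.13% of all genes with introns. Intron length was not taken into account here. Among the 7 were unc-41, gsa-1 and unc-73, whose intron summit was closer to the 5' end of F55C7.2, at 361 bp. The others were pkc-1 at 104.3, lin-2 at 104.01, unc-33 at 202 and 97.8, and cat-1 at 214. The cat-1 summit lay inside a tRNA-Ser gene and the stronger unc-33 summit 24 bp from a tRNA-Arg gene. The 5' end of M57.2 was closer to that unc-33 summit than any of unc-33.

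**Figure D5:**
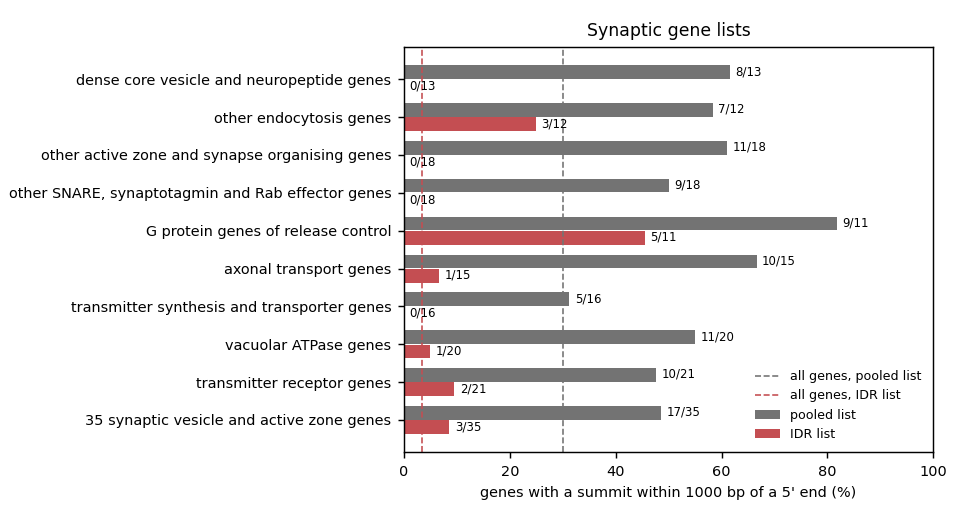
Share of genes (%) with a summit at most 1000 bp from a 5' end in the pooled list (grey) and the IDR list (red) for 9 related gene lists and the 35 genes, with counts beside the bars. Dashed lines are the shares of all nuclear protein-coding genes, 30% in the pooled list and 3.42% in the IDR list. The G protein list has 5 of 11 genes in the IDR list and the 35 genes have 3.

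At the tagged gene itself, syd-9 on the X chromosome, no IDR summit lay near a 5' end, but 1 lay in an intron and scored 141. The highest pooled score near a 5' end was 88.9, at 79 bp upstream, and 9 pooled summits lay within the gene. The transgene encodes SYD-9 too, and the lists cannot separate its reads from those of the native gene. The strain's marker gene unc-119 had no IDR summit and a highest pooled score of 57.6.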

How the data were processed

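Regions precipitated with an anti-GFP antibody from 2 biological replicates of late embryos that carried SYD-9-GFP were taken as deposited, in narrowPeak lists per replicate, for pooled alignments and after an IDR step. The authors' deposited lists give a signal score per region. Its scale, the peak caller and the IDR threshold are not given in the sources used here. Only the ce11 lists were used. Signal tracks and control alignments were not used. No column of unmapped samples was present.

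Summits were placed against Ensembl release 115 (WBcel235), which matches ce11 in chromosome names and bounds, with Python 3.11.15, pandas 2.3.3 and numpy 2.4.6. A summit within 1000 bp of an annotated 5' end, or in an intron, was given to the gene, and any closer gene was recorded. Replicate summits within 200 bp were taken as the same place. The placing was tested on simulated summits at known offsets. Motifs and sequences were read from the WBcel235 genome. tRNA pseudogenes came from RefSeq.

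Named genes were those with an IDR summit, the 10 highest pooled summits near a 5' end, the 5 highest in introns, members with none, and of 9 further lists the IDR genes and the highest 2. unc-64, unc-18, ric-4, snt-1, unc-10, sad-1, sng-1, aex-3, ehs-1, unc-26, unc-57, unc-25, unc-47, unc-46 and egl-3, and the IDR intron summits of the 9 lists, were added to account for members or chosen after their values were seen. In those lists 144 of 146 symbols matched, and rab-27 and unc-74 did not. From them aps-2 was also named after its values were seen. The genes and lists were chosen with earlier results of these data known. Alternatives changed the distance, the 5' ends counted, the score limit, small RNA genes and the replicates used.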

Additional observations from a re-analysis of the deposited data

How the results depend on the processing

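Of 42 alternative settings, 35 left the counts of synaptic genes within 1.5 times the stated value. Within 250 bp of a 5' end, 0 genes had an IDR summit, beside 1.41% of all genes, and 5 (14.3%) had a pooled one, beside 12.6%, while 1 had one in both replicates. From the outermost 5' end alone, 11 genes (31.4%) had a pooled summit, beside 27.3% of all genes, and 9 had one in both replicates. Leaving out summits at small RNA genes and tRNA pseudogenes, a setting chosen after seeing the data, left 0 genes with an IDR intron summit. With the highest regions of 1 replicate, as many as the IDR list holds, in its place, the IDR count near a 5' end was 2 to 4. Without replicate 1 dyn-1 was lost, and without replicate 2 unc-11 was gained. With those highest regions, 1 to 2 genes had an intron summit, and tom-1 joined unc-104 without replicate 2. With the whole list of 1 replicate in place of the pooled list, 17 to 22 genes had a summit near a 5' end, beside 25.6% and 39.4% of all genes. In introns 15 to 21 had one. These are counts of the replicate lists themselves, and some of their genes had no pooled summit there. Where a count in this section stands without a share of all genes, that share was not counted. No paired analysis was possible because there is 1 group. Depth is unknown, and the score limit of 95.2 that separates unc-11 and tom-1 from the strict list is the authors'.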
